A study of Mus musculus with 2 samples.

Results

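The fibroblast growth factor (Fgf) ligands and receptors of the mouse uterus were examined in 2 Affymetrix 3' expression arrays. The family was taken as 10 genes, the ligands Fgf1, Fgf2, Fgf7, Fgf9, Fgf10 and Fgf18 and the receptors Fgfr1, Fgfr2, Fgfr3 and Fgfrl1. Every probe set whose single annotated symbol was one of these genes was used, which gave 20 of 45037 non-control probe sets, and 0 probe sets with several symbols named a member. One array held stromal RNA of Msx1Msx2-null mice, in which floxed Msx1 and Msx2 alleles had been deleted with PRcre, and the other held stromal RNA of floxed control mice. Both genotypes were C57BL/6 females on day 4 of pregnancy after mating with fertile males. PRcre expresses Cre recombinase from the progesterone receptor gene, which is active in uterine epithelium and muscle as well as in stroma, so the deletion is not limited to stromal cells. The study's design text names 5 mice per genotype and its extraction protocol 4, and the RNA of a genotype was pooled, so each value below is 1 measurement of 1 pool. No test was possible, and genotype, mice and hybridization cannot be told apart.

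Fgfs are secreted proteins that bind heparan sulfate and activate receptor tyrosine kinases, from which the signal runs through adaptor proteins and the Ras and ERK kinases. In the mouse uterus before implantation, Fgfs made by the stroma act on receptors of the epithelium and promote its proliferation. Hand2, a progesterone-induced stromal transcription factor, restrains this signal by lowering stromal Fgf expression.

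The Fgf family had no member past a 2-fold difference between the arrays. The ligand with the largest ratio measured in both arrays was Fgf1, with a signal 1.57-fold higher in the null array. Fgf7, Fgfr1, Fgfr2 and Fgfrl1 differed by less than 1.25-fold on each probe set above the array median in both arrays. Fgfr3 was above the median in the control array alone, and Fgf2, Fgf9, Fgf10 and Fgf18 were under the median in both. A signal was treated as measured when it was above the median of its own array, which was 30.1 in the null array and 31.0 in the control array. Below it a signal does not show that a gene was silent. Of the 20 probe sets, 9 were measured in both arrays, 2 in the null array alone, 1 in the control array alone and 8 in neither. Over all 45037 non-control probe sets, 21309 were measured in both arrays and 21310 in neither. The family was thus measured about as often as the arrays as a whole. Of the 12 Fgf probe sets measured at least once, 0 passed 2-fold in either direction. Among the 23727 probe sets measured at least once on the arrays, 3.16% did (1.37% higher and 1.79% lower). With 12 probe sets, a count of 0 does not set the family apart.

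**Figure D1:**
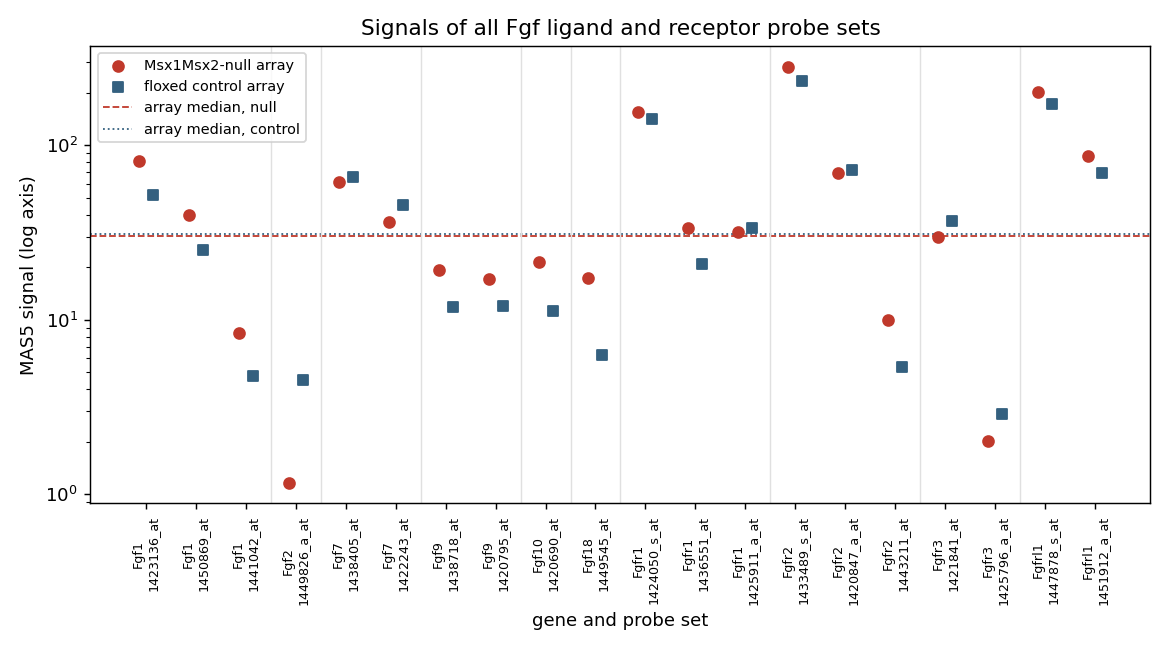
MAS5 signal (linear units on a log axis) of the 20 Fgf ligand and receptor probe sets, with red circles for the Msx1Msx2-null array and blue squares for the floxed control array; the horizontal lines are the array medians of 30.1 (null) and 31.0 (control). Each point is 1 measurement. The probe sets of Fgf2, Fgf9, Fgf10 and Fgf18 lie below both lines, while Fgf7 and Fgfrl1 lie above them on both of their probe sets.

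Fgf1, a ligand that can activate every Fgf receptor, was read by 3 probe sets. Probe set 1423136_at had a signal of 81.6 in the null array and 51.9 in the control array, which was 2.72 times and 1.67 times the median of its array. Its log2 ratio, null minus control, was 0.65. Probe set 1450869_at had 39.8 in the null array and 25.0 in the control array. The control signal was under the median, and against that median the null signal was at least 1.28-fold higher. Probe set 1441042_at was under the median in both arrays at 8.36 in the null array and 4.74 in the control array. The first and second of these probe sets carry the same sequence accession in the platform annotation, so they are not separate evidence for the gene. Among dim probe sets measured in both arrays (the lowest of 3 equal classes by mean signal, up to 102), the 5th and 95th percentiles of the log2 ratio were -0.77 and 0.68, and the ratio of 1423136_at lay at percentile 94.4. This placed Fgf1 in the upper tail of dim probe sets and short of their 95th percentile.

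Fgf7, the keratinocyte growth factor, is made by mesenchymal cells and acts on epithelial cells through a splice form of Fgfr2. Probe set 1438405_at had 61.8 in the null array and 65.4 in the control array, a log2 ratio of -0.08. Probe set 1422243_at had 36.6 in the null array and 45.2 in the control array, a log2 ratio of -0.31. Both probe sets were measured in both arrays and both were slightly lower in the null array, at percentiles 45.6 and 25.9 of dim probe sets. Fgf7 was therefore the ligand that could be followed on all of its probe sets, and its signals were close in both genotypes.

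Fgf10, the close relative of Fgf7 that uses the same epithelial receptor form, had signals of 21.6 in the null array and 11.2 in the control array on its single probe set. Fgf9 had 19.3 in the null array and 11.9 in the control array on 1438718_at. Its other probe set, 1420795_at, had 17.1 in the null array and 12.0 in the control array. All of these signals were under the medians, where the order of the arrays carries little weight. Fgf18, a ligand of the Fgf8 subfamily, had 17.3 in the null array and 6.32 in the control array. Fgf2, the basic fibroblast growth factor, had 1.16 in the null array and 4.49 in the control array. Fgf18 and Fgf2 were thus more than 2-fold apart in opposite directions on signals that were not measured above the median, and no fold is given. Of the 21310 probe sets on the arrays that were under the median in both, 45.4% were more than 2-fold apart.

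Receptor signals were close in both arrays. Fgfr2, the receptor whose epithelial splice form binds Fgf7 and Fgf10, had 282 in the null array and 234 in the control array on 1433489_s_at, a log2 ratio of 0.27. On 1420847_a_at it had 69.0 in the null array and 72.5 in the control array, a log2 ratio of -0.07. Probe set 1443211_at was under the median in both arrays at 9.97 in the null array and 5.38 in the control array. The probe sets of Fgfr2 measured in both arrays thus had opposite signs, and no direction is given for the gene. The annotation used here does not say which splice form a probe set reads, so the epithelial and mesenchymal forms could not be separated.

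Fgfr1, the receptor best known from mesenchymal cells, had 156 in the null array and 142 in the control array on 1424050_s_at, a log2 ratio of 0.13. On 1425911_a_at it had 31.7 in the null array and 33.8 in the control array, a log2 ratio of -0.09. On 1436551_at it had 33.7 in the null array and 20.7 in the control array, and against the control median the null signal was at least 1.09-fold higher. As with Fgfr2, the probe sets of Fgfr1 did not share a sign.

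Fgfr3, a receptor with epithelial and skeletal roles in the mouse, was at the edge of measurement. On 1421841_at it had 29.8 in the null array, just under the median, and 37.0 in the control array, a bound of at least 1.23-fold lower. Its other probe set, 1425796_a_at, had 2.03 in the null array and 2.90 in the control array. Fgfrl1, a receptor-like protein that binds Fgfs but lacks the tyrosine kinase domain, was higher in the null array on both of its probe sets. On 1447878_s_at it had 203 in the null array and 173 in the control array, a log2 ratio of 0.23. On 1451912_a_at it had 86.9 in the null array and 69.6 in the control array, a log2 ratio of 0.32. These ratios lay at percentile 75.4 of probe sets of middle signal and 80.6 of dim probe sets, inside the bulk of the arrays.

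**Figure D2:**
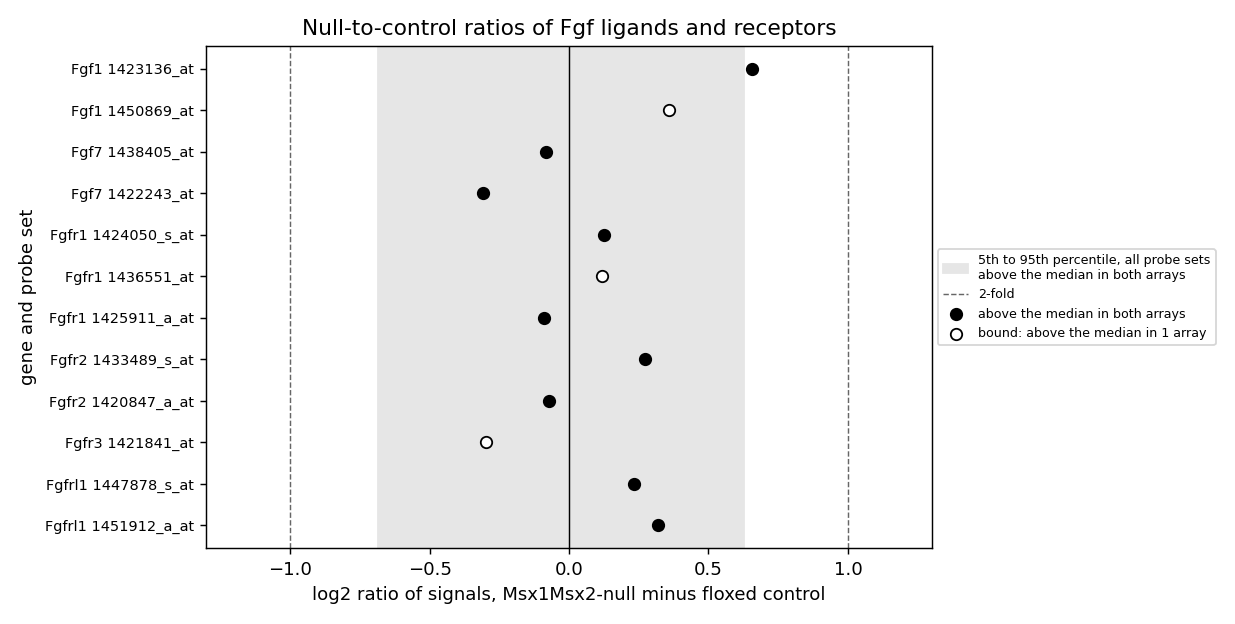
Log2 ratio of signals, Msx1Msx2-null minus floxed control, for the 12 Fgf probe sets measured in at least 1 array. Filled points were above the median in both arrays, open points are bounds, the grey band spans the 5th to 95th percentile (-0.68 to 0.63) of the 21309 probe sets measured in both arrays, and dashed lines mark 2-fold. Fgf1 1423136_at at 0.65 lies just outside the band of all probe sets, and the other 11 lie within it.

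Set among all probe sets measured in both arrays, the 9 Fgf probe sets were spread on both sides of equality. Of these, 5 were higher and 4 lower in the null array, with a median log2 ratio of 0.13, while 49.5% of all 21309 such probe sets were higher and their median was 0.00. By role, the 6 receptor probe sets held 4 higher and 2 lower, and the 3 ligand probe sets were Fgf1, higher, and both of Fgf7, lower. Differences between the 2 brightest probe sets of 4690 genes gave an SD of 0.27 for the log2 ratio of 1 probe set. Among the 9 Fgf ratios, those of Fgf1 1423136_at, Fgf7 1422243_at and Fgfrl1 1451912_a_at were larger than this SD, and that of Fgfr2 1433489_s_at was level with it. The SD was taken from the 2 brightest probe sets of a gene, both measured in both arrays, without regard to signal class. The ratios larger than this SD are all of dim probe sets, which spread more widely. The 5th and 95th percentiles were -0.77 and 0.68 in the dim class and -0.53 and 0.52 in the bright class. Among dim probe sets, Fgf7 1422243_at lay at percentile 25.9 and Fgfrl1 1451912_a_at at percentile 80.6. The SD covers probe noise within these pools and not the spread between mice.

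**Figure D3:**
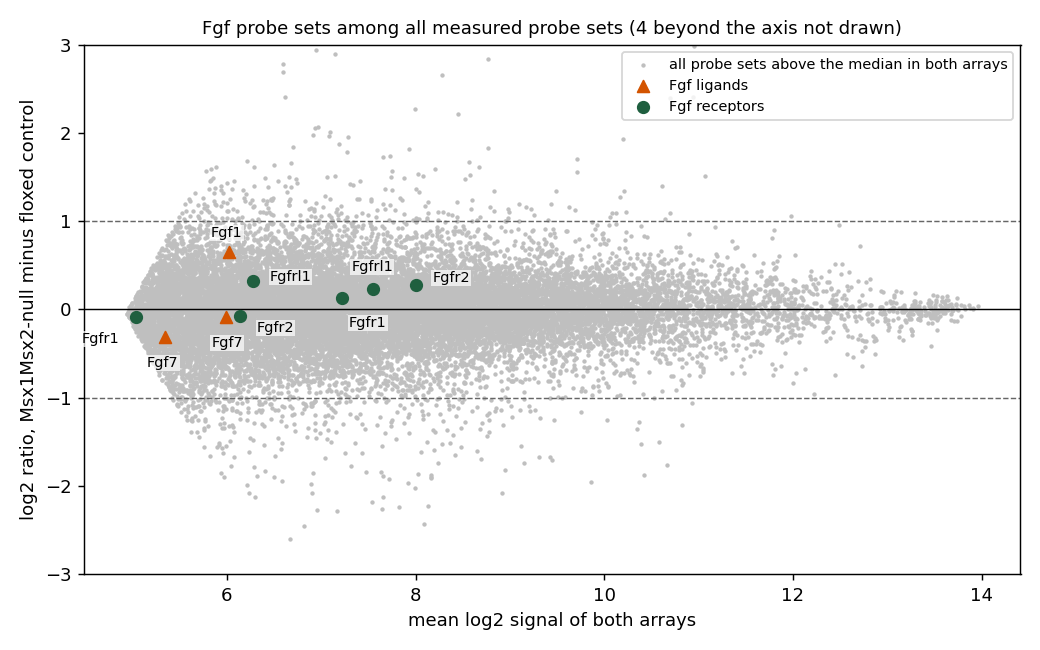
Log2 ratio (Msx1Msx2-null minus floxed control) against mean log2 signal for the 21309 probe sets measured in both arrays (grey, of which 4 lie beyond the vertical axis), with Fgf ligands as orange triangles and Fgf receptors as green circles; dashed lines mark 2-fold. The Fgf points sit in the dim and middle part of the signal range, 6 in the dim class and 3 in the middle class, and 0 of them pass 2-fold.

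The start-site regions of the genes that were measured in both arrays and have an entry in the RefSeq promoter table are shown because the factors missing from the null cells are homeodomain proteins, which bind DNA at a TAAT core. The sequences are the 250 bases before the RefSeq start, build GRCm38.p6, 5′ to 3′ on the gene's strand, with each TAAT core (TAAT or its reverse complement ATTA) in capitals, extended where the longer TAATTG, the sequence preferred by Msx proteins, is present. Fgf7 (chr2:126034408-126034657, plus strand) holds 2 cores, and the one that starts 62 bases before the start site is a TAATTG. Fgfr2 (chr7:130266809-130267058, minus strand) holds 2 cores and no TAATTG. Fgfrl1 (chr5:108693979-108694228, plus strand) holds neither, in a window of 73.6% G and C against 43.6% in Fgf7, 44% in Fgfr2 and a median of 52.4% over all windows.
Fgf7: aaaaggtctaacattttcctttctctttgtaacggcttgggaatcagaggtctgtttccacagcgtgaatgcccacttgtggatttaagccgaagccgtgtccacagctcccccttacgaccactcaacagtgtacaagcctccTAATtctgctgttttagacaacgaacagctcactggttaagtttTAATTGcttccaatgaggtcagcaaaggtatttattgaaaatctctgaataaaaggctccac
Fgfr2: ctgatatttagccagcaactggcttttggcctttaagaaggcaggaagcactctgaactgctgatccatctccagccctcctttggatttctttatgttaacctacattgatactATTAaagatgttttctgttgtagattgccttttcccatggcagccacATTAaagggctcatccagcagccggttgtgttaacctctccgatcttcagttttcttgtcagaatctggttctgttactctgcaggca
Fgfrl1: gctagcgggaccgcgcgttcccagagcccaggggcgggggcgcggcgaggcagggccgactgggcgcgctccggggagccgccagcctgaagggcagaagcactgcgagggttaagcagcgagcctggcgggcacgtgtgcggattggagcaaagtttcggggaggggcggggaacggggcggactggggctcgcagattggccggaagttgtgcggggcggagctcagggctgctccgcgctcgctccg
Over both strands, TAATTG was found in 1 of 9 windows of 8 member genes, against 7.17% of 32851 windows of all genes. The TAAT core, which every TAATTG contains, was found in 3 of the 9 windows, those of Fgf7, Fgfr2 and Fgf9, against 54.9% of all windows. Fgf7, with its TAATTG, Fgfr2, with 2 cores, and Fgfrl1, with no core, were each within 1.25-fold on the probe sets measured in both arrays. A link between these motifs and the ratios was not tested. A match in a start-site window is a description of the sequence and not a bound site.

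Other Fgf genes gave few measured signals. Of the 12 further secreted ligands, 11 were under the median in both arrays. Fgf4, the ligand best known from the early embryo, had 29.3 in the null array and 32.6 in the control array. Of the 4 Fgf homologous factors, which stay inside the cell and regulate sodium channels, 3 were under the median in both arrays, and Fgf13 had 45.1 in the null array and 68.9 in the control array, 1.53-fold lower. Counting genes by their brightest probe set, 11833 of the 18193 genes on the arrays were measured. Of these 11833 genes, 3.39% passed 2-fold, 1.59% higher and 1.8% lower, and their median log2 ratio was 0.02.

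Of 9 co-receptors, carriers and receptor partners, 5 were measured, 2 higher and 3 lower, with a median log2 ratio of -0.31 and 0 past 2-fold. That median is the bound of Flrt1, measured in the control array alone, and the summed signal of the list ran the other way, at 709 in the null array and 596 in the control array. Flrt2, a transmembrane protein of a family that interacts with Fgf receptors, had 384 in the null array and 248 in the control array, 1.55-fold higher. Its relative Flrt3 had 47.3 in the null array and 61.8 in the control array, a log2 ratio of -0.39. Fgfbp3, a carrier that releases Fgfs from the matrix, had 46.4 in the null array and 58.7 in the control array, a log2 ratio of -0.34. Fgfr4 and the klotho co-receptors Kl and Klb, which serve the endocrine Fgfs, were under the median in both arrays.

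Genes that carry the receptor signal inside the cell were close to equality as a group. Of 20 adaptors and effectors, 14 had a probe set with a single symbol and 13 were measured, 8 higher and 5 lower, with a median log2 ratio of 0.02 and 0 past 2-fold. Grb2, the adaptor that links receptors to Ras activation, had 164 in the null array and 299 in the control array, a log2 ratio of -0.87. Gab1, a docking protein, had 0.37, the phosphatase gene Ptpn11 had 0.29 and the phospholipase gene Plcg1 had 0.28 as log2 ratio. Each of these 4 genes had another measured probe set of the opposite sign.

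Feedback inhibitors and ETS transcription factors, which Fgf signalling induces in many tissues, had more negative than positive ratios. Of 13 genes 12 were on the arrays with a single symbol and 8 were measured, 2 higher and 6 lower, with a median log2 ratio of -0.19. Over all measured genes on the arrays, 52.3% were higher. Spry4, an inhibitor of the Ras and ERK pathway, had 21.5 in the null array and 72.1 in the control array, at least 2.40-fold lower, and was the 1 gene of this list past 2-fold. Spred1, another inhibitor of Ras signalling, had 218 in the null array and 300.2 in the control array, a log2 ratio of -0.46, and of its 4 other measured probe sets 2 had the same sign and 2 the opposite one. Dusp6, the ERK phosphatase widely used as a readout of Fgf signalling, had 546 in the null array and 556 in the control array, a log2 ratio of -0.03. Etv5, an ETS factor used in the same way, had 133 in the null array and 150.0 in the control array, a log2 ratio of -0.17. Spry1, Spry2, Spred2 and Dusp5 had log2 ratios of -0.20, 0.15, -0.22 and 0.33, and the 1 other measured probe set of Spry2 had the opposite sign. Etv4 and Dusp4 were under the median in both arrays.

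Heparan sulfate proteoglycans and their enzymes, which hold Fgfs in the matrix and complete the ligand-receptor complex, had ratios in both directions. Of 26 genes 25 were on the arrays with a single symbol and 20 were measured, 12 higher and 8 lower, with a median log2 ratio of 0.08. Hs3st1, a sulfotransferase that modifies heparan sulfate, had 306 in the null array and 134 in the control array, 2.29-fold higher, and was the 1 gene of this list past 2-fold. The glypican gene Gpc1 had 924 in the null array and 510.3 in the control array, 1.81-fold higher. The syndecan gene Sdc1, an epithelial proteoglycan core protein, had 913 in the null array and 566 in the control array, 1.61-fold higher. Sulf1, which removes sulfate groups from heparan sulfate outside the cell, had 403 in the null array and 673 in the control array, 1.67-fold lower. The cell surface core proteins did not share a direction, since Sdc4 had a log2 ratio of 0.60 and Gpc3 had -0.59.

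**Figure D4:**
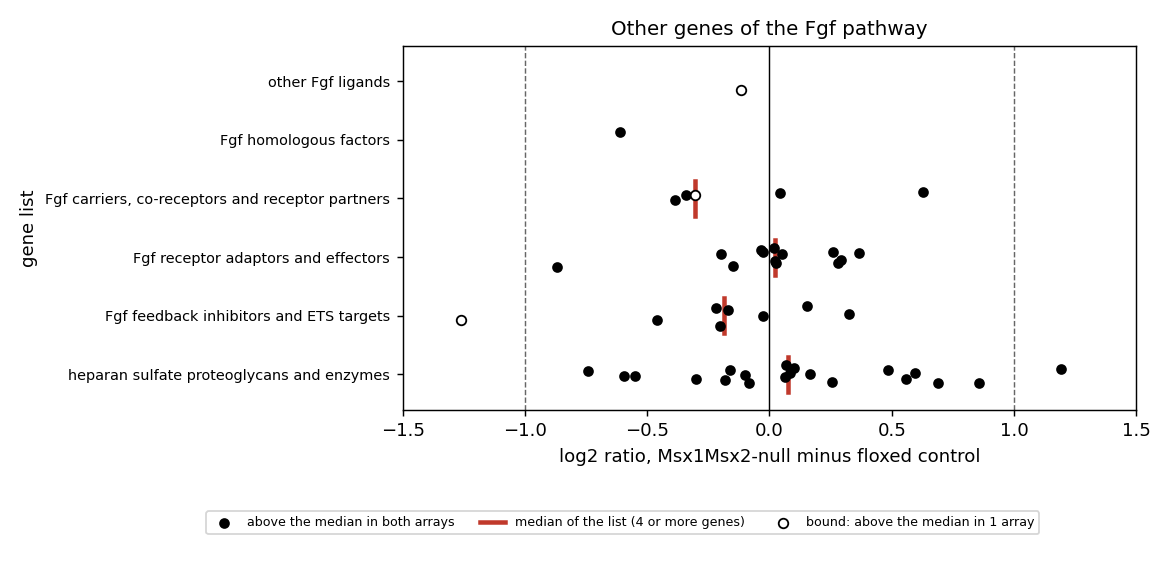
Log2 ratio (Msx1Msx2-null minus floxed control) of the genes measured in at least 1 array, by list, each gene by its brightest probe set. Filled points were above the median in both arrays, open points are bounds, red bars are list medians where 4 or more genes were measured, and dashed lines mark 2-fold. The medians run from -0.31 for the list of carriers, co-receptors and receptor partners to 0.08 for the heparan sulfate genes. Spry4 (-1.26, a bound) and Hs3st1 (1.19) are the points past 2-fold.

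The arrays matched their labels at the targeted genes. Msx1 had 23.0 in the null array and 1581 in the control array on 1448601_s_at, at least 52.6-fold lower. Msx2 had 14.5 in the null array and 63.7 in the control array on 1449559_at, at least 2.12-fold lower. The position of these probe sets relative to the deleted exons is not given in the labels. Hand2 was higher in the null array on its brightest probe set, at 1230 against 795 in the control array, and close on 1422221_at, at 31.9 in the null array and 32.1 in the control array. The 3'/5' signal ratio, a measure of RNA integrity, was 1.28 in the null array and 0.967 in the control array for Gapdh. For Actb it was 2.33 in the null array and 1.80 in the control array.

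Fgf ligands and receptors are made by different uterine cells, and in pooled RNA fewer cells of a type cannot be told apart from less RNA per cell. All 11 stromal markers were measured, with a summed signal of 62471 in the null array and 60569 in the control array. Of these, 7 were higher and 4 lower in the null array, with log2 ratios from -0.32 to 0.80. Epithelial markers were measured too, 12 of 12, with 9910 in the null array and 11471 in the control array, although epithelial clumps had been discarded. They did not share a direction, with 3 higher and 9 lower in the null array. Krt18 was 2.09-fold lower and Krt19 2.05-fold higher. All 5 gland markers were lower in the null array by more than 2-fold, with 436 in the null array and 7703 in the control array, in a list chosen with these genes' values known. The endothelial list (9 of 9 genes lower) had 2535 in the null array and 3787 in the control array, the pericyte list (6 of 7 lower) 7629 in null and 10693 in control, and the macrophage list (7 of 7 lower) 3571 in null and 5540 in control. The smooth muscle list (7 of 8 higher) had 14564 in the null array and 10897 in the control array. Of 7 natural killer and T cell markers on the arrays, 4 were measured and higher, with a list sum of 2834 in the null array and 1594 in the control array, and the T cell genes Cd3e, Cd8a and Cd4 were not. Of 5 mesothelial markers, Msln, Upk3b and Lrrn4 were under the median in both arrays, and the list sum was 592 in the null array and 369 in the control array. Most of that sum was Wt1, a gene that uterine stroma also expresses, with 491 in the null array and 292 in the control array, while Upk1b had 49.7 in the null array and 49.9 in the control array. All 6 blastocyst markers were under it, with sums of 40.9 in the null array and 26.2 in the control array. The part of these differences in the Fgf values was not tested.

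**Figure D5:**
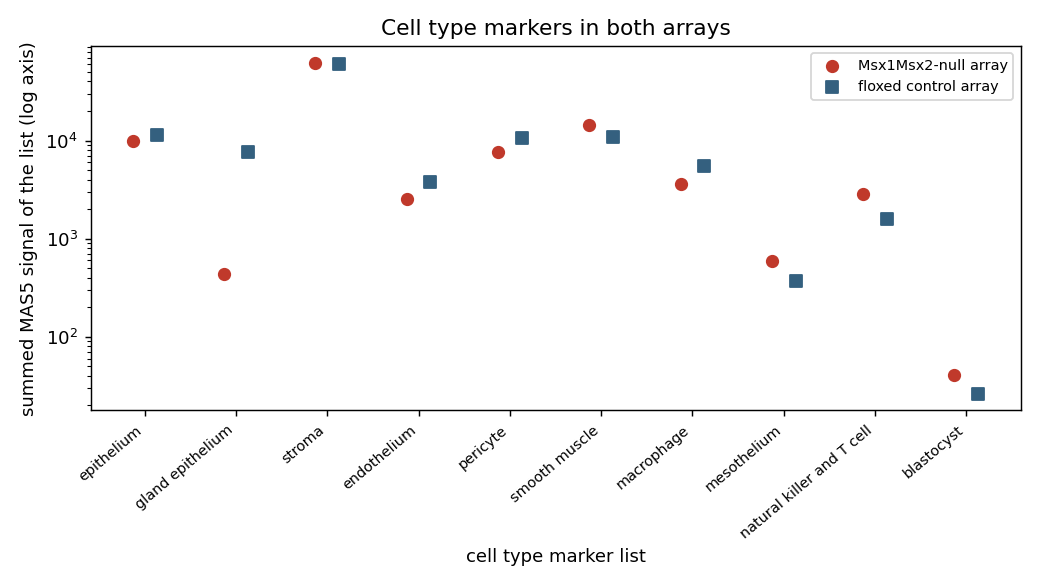
Summed MAS5 signal (log axis) of each cell type marker list, with red circles for the Msx1Msx2-null array and blue squares for the floxed control array, 1 array each. The gland list is the most separated, at 436 in the null array and 7703 in the control array, while the stromal list is at 62471 in the null array and 60569 in the control array.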

How the data were processed

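The deposited table gives a linear signal intensity for each probe set in each array. The submitters' processing notes name MAS5 and Affymetrix Expression Console 1 as the authors' tools. MAS5 subtracts mismatch and background signal, which makes ratios of small signals unstable. The 2% trimmed mean signal was 150.0 in the null and in the control array, so both had been scaled to a common level. Scaling settings and detection calls are not given in the sources used here.

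Of 45101 probe sets, 64 were controls. The platform annotation gave 1 symbol for 34945, several for 932 and none for 9160, and only those with 1 symbol were used for genes. Signals were turned into log2 ratios, null minus control, with no further scaling. A signal under the median of its array's non-control probe sets was raised to it, and the fold is then printed as "at least". With 1 array per genotype there was no test, and 2-fold served as a size threshold. The number of arrays limits the precision. A gene outside the family was represented by its brightest probe set (mean log2 signal of both arrays). The ratio functions were tested on simulated data with large changes planted in bright probe sets, so small ratios of dim signals were not covered. Python 3.11.15, numpy 2.4.6, pandas 2.3.3 and matplotlib 3.10.9 were used.

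The members, gene lists and threshold were chosen with earlier results of these data known. The rule for named genes took all member probe sets, Msx1, Msx2, Pgr and Hand2, and from each other list the genes past 2-fold and up to 4 with the largest ratios. The marker lists are given mainly as sums and counts, and not all of their genes that meet the rule are named. Msln, Upk3b, Lrrn4, Cd3e, Cd8a and Cd4 are named outside the rule. With 2 arrays no genes were named for a pattern like a member's. Pgr had 2663 in the null array and 1891 in the control array on its brightest probe set. Dusp6, Etv5, Etv4, Dusp4, Spry1, Spry2, Sdc4, Gpc3, Fgfr4, Kl and Klb were named after their values were seen.

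Alternatives were no floor, a floor at the 65th percentile, median scaling, quantile normalization, a pseudocount of 16, a threshold of 1.5-fold, leaving out probe sets ending in _x_at, _s_at or _a_at, and a gene value taken as the median of its probe sets.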

Additional observations from a re-analysis of the deposited data

How the results depend on the processing

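The count of Fgf probe sets past 2-fold stayed at 0 in each direction under the 65th percentile floor, both other scalings, the pseudocount and the removal of _x_at, _s_at and _a_at probe sets. Most of these settings could scarcely raise a count of 0. The higher floor and the pseudocount draw ratios toward equality, the removal can only lower a count, and median scaling shifts all ratios by the same small amount. With no floor it was 1 higher in the null array (Fgf18) and 1 lower (Fgf2), both on signals under the array medians, and 24.5% of all probe sets then passed 2-fold. At 1.5-fold, 1 probe set was higher (Fgf1 1423136_at) and 0 were lower, against 14.1% of all measured probe sets. With the floor at the 65th percentile, 5 of the Fgf probe sets were measured, against 12 at the median.

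Ratios were recomputed only for the 12 Fgf probe sets measured in at least 1 array at the median floor, which leaves out Fgf18 and Fgf2. Of these 53 recomputed ratios, 50 moved by less than the probe set SD of 0.27 and 0 passed 2-fold. The 3 that moved further were Fgf1 1423136_at, at -0.002 with the higher floor because that floor lies at its null signal, and 2 bounds, Fgf1 1450869_at and Fgfr1 1436551_at, at 0.67 and 0.70 with no floor. The medians of the 4 lists with at least 4 measured genes kept their sign under every alternative that gave a value. They ran from -0.31 to -0.21 for the list of carriers, co-receptors and receptor partners, in which Kl and Klb were not measured. The ranges were 0.02 to 0.07 for adaptors, -0.19 to -0.10 for feedback genes and 0.05 to 0.12 for heparan sulfate genes. No paired analysis was possible because each genotype had 1 array of pooled RNA. Dim signal limits the Fgf ligands, of which 4 of 6 were under the median in both arrays.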
